A study of Homo sapiens with 15 samples.

Results

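The axon guidance ligands and receptors were taken as the protein-coding genes of 8 families: semaphorins, plexins, ephrins, Eph receptors, netrins, UNC5 receptors, SLIT ligands and ROBO receptors. Family membership was read from the gene symbols in GENCODE, which gave 66 genes, of 20136 protein-coding genes in all. An H3K4me3 peak was assigned to a gene when it lay within 2 kb of an annotated start of that gene, and an H3K27ac peak when the gene was the nearest and its start lay within 100 kb. By this rule the genes held 67 of the 22572 H3K4me3 peaks and 259 of the 62195 H3K27ac peaks.

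The peaks were measured by ChIP-seq in the human breast cancer line MDA-MB-231, which lacks oestrogen and progesterone receptors and HER2 amplification and is called Par here. They were also measured in LM2 and BrM2, sub-populations of that line that colonize the lung and the brain. Both sub-populations were selected in mice from the parental line, and each was profiled as 1 cell population. All cells were cultured for 3 days in DMEM with 10% serum and, per the labels, fixed in 1% formaldehyde for 10 min, so that the line was the only labelled difference between groups. Each line had 2 replicate libraries per mark, giving 12 libraries, and the 3 input samples were not analysed here. H3K4me3 marks active promoters, and H3K27ac marks active promoters and enhancers. In such bulk libraries, a higher level in every cell and a larger share of marked cells cannot be told apart.

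Axon guidance molecules steer growing axons and migrating cells. Netrins signal through UNC5 and DCC receptors, SLIT ligands through ROBO receptors, semaphorins through plexins, often with neuropilins, and ephrins through Eph receptors on the neighbouring cell. Many of these pairs also act outside the nervous system, in vessel growth, epithelial contacts and tumour cell migration.

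H3K4me3 libraries held between 3489607 and 9839629 counts in peaks, and replicate 2 was the deeper library in every line. H3K27ac libraries held between 1994996, in BrM2 replicate 2, and 6450028, in LM2 replicate 1. The promoter peak of VIM, a mesenchymal gene, had normalized counts of 1039.2 to 1514.0 over the 6 H3K4me3 libraries, and that of CDH1, the epithelial cadherin, had 12.9 to 41.8. The strongest promoter peaks of the mesenchymal genes ZEB1 and FN1 had 1028.2 to 1753.4 and 186.0 to 293.0. Those of the epithelial genes KRT18, KRT8 and EPCAM had 393.0 to 522.0, 145.0 to 422.0 and 121.0 to 314.0, so CDH1 did not stand for all epithelial genes. The receptor genes ESR1, PGR and ERBB2 (HER2) had 37.0 to 262.0, 7.62 to 113.0 and 392.0 to 663.0. These are counts of a promoter mark and not levels of the receptors. A normalized count is the read count of a peak after scaling by the DESeq2 size factor. The study's methods call the pair of libraries per line biological replicates, and the labels do not say whether they came from separate cultures, so p-values measure the spread between these libraries.

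Sequences of promoters that carried H3K4me3 differences are shown as the 250 bases upstream of the annotated start, on the strand of the gene, with each CG dinucleotide in capitals. They were read from the GRCh37 genome, which is the build of the peaks (hg19). ROBO2, PLXNC1, EPHA6 and EPHA7 are shown at the start of the canonical transcript. The ROBO1 window belongs to the start of a shorter protein-coding transcript, where its peak lay. For SEMA6B, the window at the upstream start is shown, where the peak fell in BrM2.
SEMA6B upstream start (chr19:4581789-4582038, minus strand): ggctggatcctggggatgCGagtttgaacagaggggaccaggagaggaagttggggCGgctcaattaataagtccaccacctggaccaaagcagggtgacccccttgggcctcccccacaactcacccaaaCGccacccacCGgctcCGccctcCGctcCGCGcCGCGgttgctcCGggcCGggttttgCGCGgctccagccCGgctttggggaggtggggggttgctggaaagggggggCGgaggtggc
ROBO1 (chr3:79068610-79068859, minus strand): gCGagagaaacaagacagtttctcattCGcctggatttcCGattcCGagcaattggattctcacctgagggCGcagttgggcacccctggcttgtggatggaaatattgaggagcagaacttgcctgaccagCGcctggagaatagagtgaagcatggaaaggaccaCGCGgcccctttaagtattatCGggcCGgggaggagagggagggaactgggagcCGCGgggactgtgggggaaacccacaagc
ROBO2 (chr3:77089000-77089249, plus strand): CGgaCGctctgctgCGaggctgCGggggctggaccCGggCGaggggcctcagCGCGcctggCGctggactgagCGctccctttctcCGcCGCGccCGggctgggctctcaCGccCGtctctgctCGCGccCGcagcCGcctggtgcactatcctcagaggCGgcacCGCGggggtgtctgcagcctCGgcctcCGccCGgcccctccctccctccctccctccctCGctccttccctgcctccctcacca
PLXNC1 (chr12:94542103-94542352, plus strand): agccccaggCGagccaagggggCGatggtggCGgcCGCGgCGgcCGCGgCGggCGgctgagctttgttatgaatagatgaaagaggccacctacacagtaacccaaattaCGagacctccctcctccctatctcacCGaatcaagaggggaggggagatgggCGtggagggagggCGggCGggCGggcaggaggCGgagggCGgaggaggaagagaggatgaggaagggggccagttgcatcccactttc
EPHA6 (chr3:96533188-96533437, plus strand): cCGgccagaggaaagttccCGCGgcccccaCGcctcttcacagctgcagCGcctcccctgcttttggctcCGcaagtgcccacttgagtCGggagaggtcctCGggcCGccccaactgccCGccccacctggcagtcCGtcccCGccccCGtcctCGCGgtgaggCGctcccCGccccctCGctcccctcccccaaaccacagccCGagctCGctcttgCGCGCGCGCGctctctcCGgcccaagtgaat
EPHA7 (chr6:94129278-94129527, minus strand): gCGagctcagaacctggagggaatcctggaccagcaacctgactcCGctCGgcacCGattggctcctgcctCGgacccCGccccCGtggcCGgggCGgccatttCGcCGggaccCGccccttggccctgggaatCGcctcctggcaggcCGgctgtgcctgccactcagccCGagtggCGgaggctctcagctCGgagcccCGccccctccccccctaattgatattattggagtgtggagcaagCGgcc

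The windows of ROBO2 and EPHA6 hold 27 and 26 CG dinucleotides, that of EPHA7 holds 19, that of PLXNC1 18, that at the upstream SEMA6B start 16 and that of ROBO1 12. CG-rich promoters are the common sites of H3K4me3. Over the 65 member genes with a window, the median was 22 CG dinucleotides, against 18 over the windows of 19867 protein-coding genes. GGGCGG was found on either strand in 54 of the 65 windows (83.1%) and in 59.1% of all windows. The members without an H3K4me3 peak at the canonical start had a median of 15.5, over 10 genes. Those with a peak there had medians of 23 (46 genes, no change called) and 26 (9 genes, change called). PLXNB1 had 4 and carried the highest H3K4me3 level per kb among the plexins. These matches describe letters in the windows only.

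An H3K4me3 peak was present at 57 of the 66 genes (86.4%), and at 69.4% of all protein-coding genes. All 8 ephrins and all 4 ROBO receptors had a peak, as did 19 of 20 semaphorins, 8 of 9 plexins and 11 of 14 Eph receptors. EPHA1, EPHA8, EPHB1, PLXNA4, SEMA4A, SLIT1, SLIT3, NTN5 and UNC5D had none. H3K27ac peaks were assigned to 62 of the genes, with most at SEMA3C (18), SEMA4D (14) and PLXNA1 (13). Of the 259 H3K27ac peaks, 108 were intronic, 73 touched an exon and 78 lay outside the gene.

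Promoter levels differed widely within most of the families that had several peaks. Given per kb of peak, as the mean normalized count over the 6 libraries, the highest level was at SEMA4C (417 per kb), a semaphorin bound to the membrane, and the lowest was at an upstream ROBO2 start (6.57 per kb). The median level was 162 per kb over 10 plexin peaks and 103 over 12 Eph receptor peaks. It was 75.7 over 23 semaphorin peaks, 66.2 over 8 ephrin peaks and 21.7 over 7 ROBO peaks. The leading members were NTN4 among netrins (345 per kb), PLXNB1 among plexins (312), EFNA5 among ephrins (275) and EPHB2 among Eph receptors (225). SLIT2 (178 per kb) was the only SLIT gene with a peak, and ROBO3 (151) and UNC5B (96.4) led their receptor families. None of these 8 leading peaks was called changed by DESeq2 in any contrast without the replicate block, and NTN4, PLXNB1, SLIT2 and UNC5B passed in at least 1 contrast with it. EPHA2, an Eph receptor known in breast cancer, had the widest peak (16232 bp), with normalized counts of 1639.6 in Par, 1603.0 in LM2 and 1751.5 in BrM2 on average.

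**Figure D1:**
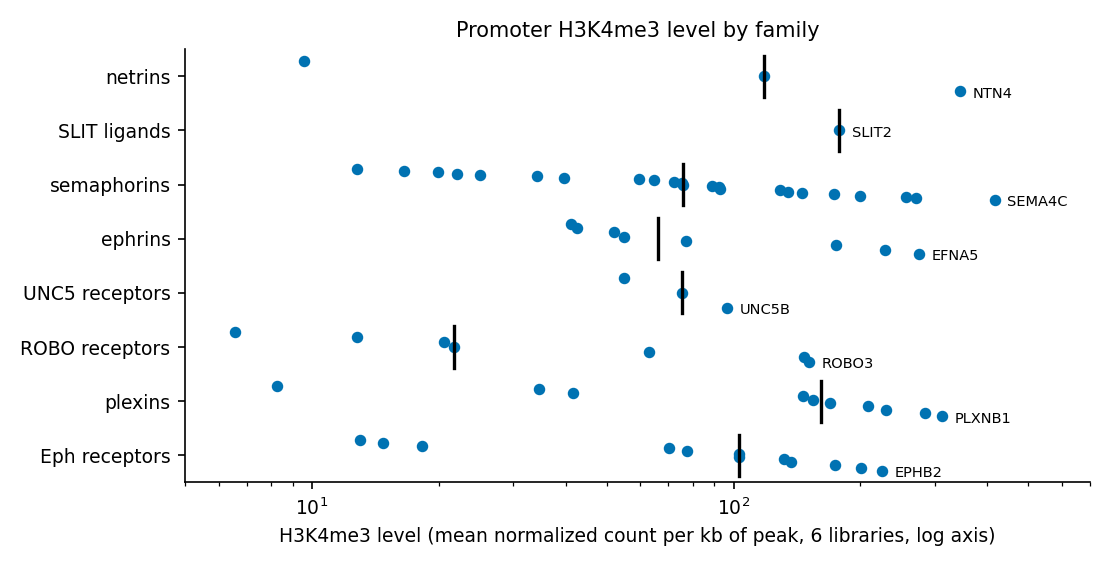
H3K4me3 level of each member promoter peak, as mean normalized count per kb over the 6 libraries on a log axis, by family. Points are peaks, vertical bars are family medians, and the highest gene of each family is named. The ROBO family has the lowest median (21.7 per kb) and the plexins, of which 10 peaks are shown, have a median of 162 per kb.

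To find which guidance promoters differed between the metastatic sub-populations and Par, the 67 H3K4me3 peaks were read from fits over all peaks of the mark. In LM2, promoters of NTN1, SEMA6B, UNC5A, ROBO1, ROBO2 and PLXNC1 rose, and none fell by the DESeq2 test. Of 62 member peaks tested against Par, 6 rose (9.68%), where 1.97% of all tested peaks rose, and 0 fell, where 0.538% of all fell. At an unadjusted p under 0.05, 14 member peaks were higher and 2 lower, and edgeR also called 6 higher and 0 lower. Of all 13372 promoter peaks of protein-coding genes, 1.71% of those tested rose and 0.57% fell. The median log2 fold change was 0.24 over the member peaks and 0.02 over all peaks. With the replicate number as a block in the model, 20 of 62 member peaks rose and 1 fell (8.9% and 5.49% of all tested peaks).

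In BrM2, 8 of 65 tested member peaks rose against Par and 1 fell. The risers were at NTN1, the canonical start of SEMA6B, ROBO1, ROBO2, ROBO4, PLXNC1, EPHA6 and EPHA7, and the upstream start of SEMA6B fell. Among all tested peaks 2.82% rose and 0.791% fell, and among all promoter peaks 2.09% and 0.886%. The median log2 fold change was 0.12 over the members and -0.02 over all peaks. When the replicate number entered the model as a block, 13 members rose and 9 fell, where 8.55% and 9.11% of all tested peaks passed. Both comparisons use the same Par libraries, so their shared members are given side by side and not counted as independent evidence.

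BrM2 was also set against LM2 directly. Of 67 tested member peaks, 2 were higher in BrM2 (EPHA6 and EPHA7) and 2 were lower (SEMA5A and the upstream SEMA6B start). The background was 2.05% higher and 1.13% lower. The median was -0.21 over the members and -0.04 over all peaks. Under the replicate block, 9 members of 64 were higher and 18 lower, against 8.99% and 13% of all tested peaks.

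**Figure D2:**
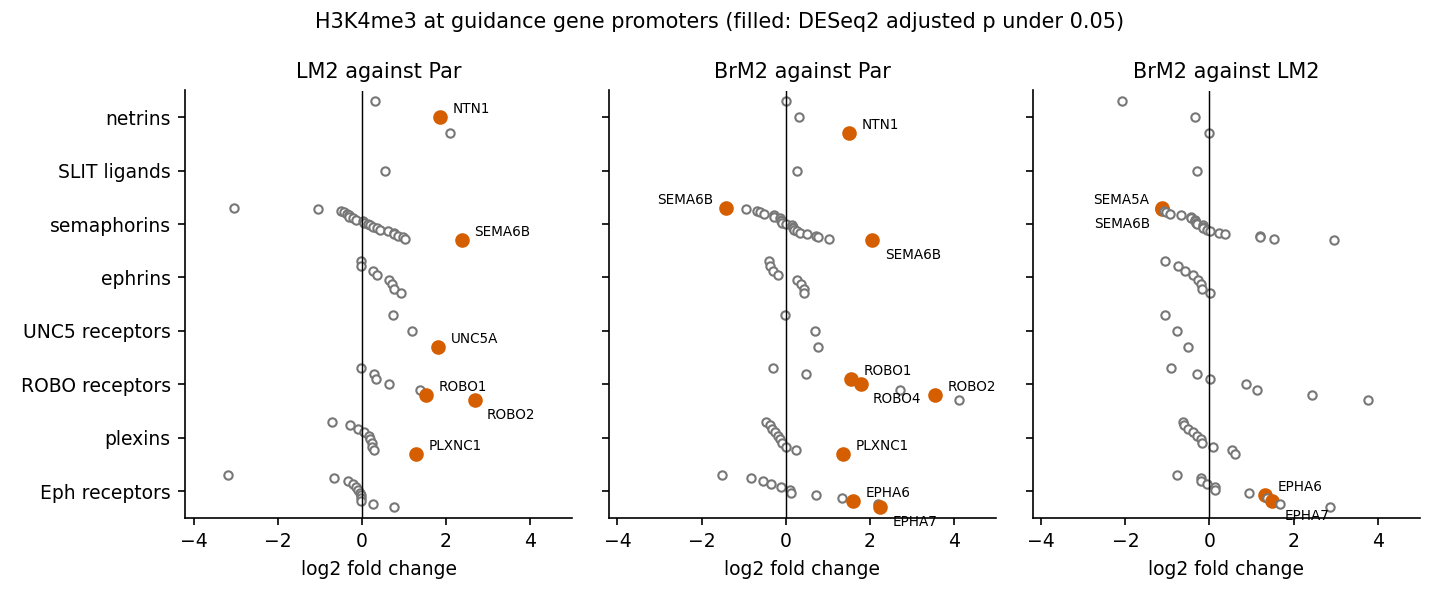
log2 fold changes of H3K4me3 at the member promoter peaks by family, with 1 panel per contrast. Filled points have a DESeq2 adjusted p under 0.05 without the replicate block and are named, and open points did not pass. The filled points number 6, 9 and 4 in the 3 panels, and the open points furthest from 0 are peaks with low counts.

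Among the ligands, NTN1 was the only netrin promoter called changed without the block. Netrin-1 is a secreted laminin-related cue that attracts or repels axons depending on the receptor. Its peak had normalized counts of 86.3 and 73.2 in the Par libraries, 313 and 262 in the LM2 libraries, and 224 and 225 in the BrM2 libraries. Par did not overlap either sub-population. The level was 3.62-fold that of Par in LM2 (log2 fold change 1.86 ± 0.36 SE, DESeq2 adjusted p = 5.74e-05) and 2.84-fold in BrM2 (1.5 ± 0.36, adjusted p = 0.00204). LM2 and BrM2 did not pass the test against each other (-0.35 ± 0.34, adjusted p = 0.885). The 70 neighbouring H3K4me3 peaks within 2.5 Mb had medians of 0.03 and 0.10 in the contrasts with Par. NTN4, by far the higher of the netrin promoters, differed from Par by 0.32 in both sub-populations and did not pass (adjusted p = 1 in LM2 and 0.987 in BrM2), although both values passed with the replicate block (adjusted p = 0.0308 and 0.0181).

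SEMA6B, a transmembrane semaphorin that signals through class A plexins, had 3 H3K4me3 peaks, and those at its canonical and upstream starts changed in opposite directions in BrM2. The peak at the canonical start had low normalized counts of 9.19 and 13.1 in the Par libraries, with 47.3 and 71.5 in the LM2 libraries, and 38.2 and 57.3 in the BrM2 libraries. Par lay below both sub-populations without overlap. The rise was 5.21-fold in LM2 (log2 fold change 2.38 ± 0.61, DESeq2 adjusted p = 0.00741) and 4.18-fold in BrM2 (2.06 ± 0.61, adjusted p = 0.0268). The peak at the upstream start (chr19:4579596-4582101) was far stronger, at 500 and 433 in the Par libraries, 381 and 376 in the LM2 libraries, and 145 and 201 in the BrM2 libraries. BrM2 was lowest and overlapped neither other line. This peak was 2.68-fold lower in BrM2 than in Par (-1.42 ± 0.34, adjusted p = 0.00169) and 2.18-fold lower than in LM2 (-1.12 ± 0.34, adjusted p = 0.0318). The call against LM2 was lost when any of the 6 libraries was left out (adjusted p of 0.0647 without Par replicate 1 to 0.458 without BrM2 replicate 1). The 107 neighbouring peaks had a median of -0.43 in BrM2 against Par and 25 of them lay above 0. After medians of 5 Mb windows were removed, the upstream peak no longer passed (-0.95, adjusted p = 0.118), while the peak at the canonical start still did (2.50, adjusted p = 0.0113). The part of the neighbourhood in the result was not tested. The third peak, 1834 bp further upstream, gave 0.26 in LM2 and -0.68 in BrM2 and was not called. In BrM2 the call at the canonical start was lost with edgeR (adjusted p = 0.0653) and with chromosome medians removed (0.0562).

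SEMA5A, a membrane semaphorin that can attract or repel axons, was the other semaphorin with an H3K4me3 difference called without the block. Its promoter peak (chr5:9544433-9548194) had 432 and 353 in the Par libraries, 494 and 409 in the LM2 libraries, and 225 and 184 in the BrM2 libraries. LM2 and Par overlapped, and BrM2 lay below both. It was 2.21-fold lower in BrM2 than in LM2 (log2 fold change -1.14 ± 0.33, DESeq2 adjusted p = 0.0234), and this call was lost when any of the 6 libraries was left out (adjusted p of 0.0508 without Par replicate 1 to 0.662 without BrM2 replicate 2). Against Par the difference was -0.94 ± 0.34 (adjusted p = 0.106, and 3.36e-07 with the replicate block). Of the 23 semaphorin peaks, 14 had positive log2 fold changes in LM2 and 12 in BrM2, with medians of 0.15 and 0.01.

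Ephrins, which stay on the cell surface and bind Eph receptors on touching cells, had no called promoter among 8 peaks in either contrast with Par by DESeq2 or edgeR without the block. DESeq2 called 2.51% of all tested peaks in LM2 and 3.61% in BrM2, so the absence of calls among 8 peaks does not set the ephrins apart. When the block was added to DESeq2, EFNA3 (adjusted p = 0.00035), EFNB1 (0.0206) and EFNB2 (0.00191) rose in LM2, and EFNB2 fell in BrM2 (0.00145). At an unadjusted p under 0.05, DESeq2 gave 1 higher in LM2 and 0 in BrM2. The largest value in LM2 was EFNA3 with 0.94, and in BrM2 EFNB3 with 0.44. The median was 0.50 in LM2 and 0.05 in BrM2.

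Among the receptors, ROBO2 had the largest called H3K4me3 rise. ROBO2, a receptor for SLIT ligands, had a peak at its canonical start (chr3:77087749-77090082) with normalized counts of 18.4 and 26.2 in Par. The counts were 162 and 135 in LM2 and 294 and 248 in BrM2. The 3 lines did not overlap, with Par lowest and BrM2 highest. This was 6.40-fold of Par in LM2 (log2 fold change 2.68 ± 0.43, DESeq2 adjusted p = 3.73e-07) and 11.7-fold in BrM2 (3.55 ± 0.43, adjusted p = 1.79e-13). Both calls held when any library was left out. BrM2 against LM2 gave 0.87 ± 0.37 (adjusted p = 0.264, and 0.00267 with the replicate block). The 7 neighbouring H3K4me3 peaks with a mean of at least 20 had medians of -0.54 in LM2 and -0.14 in BrM2.

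ROBO1, another SLIT receptor, had no H3K4me3 peak at its canonical start and a strong one at the start of a shorter protein-coding transcript (chr3:79065827-79069005). The normalized counts there were 200 and 212 in the Par libraries, 714 and 476 in the LM2 libraries, and 689 and 518 in the BrM2 libraries. Par was lower than both sub-populations, which overlapped each other. The rise was 2.87-fold in LM2 (log2 fold change 1.52 ± 0.35, DESeq2 adjusted p = 0.00143) and 2.92-fold in BrM2 (1.55 ± 0.35, adjusted p = 0.000789). The only neighbouring H3K4me3 peak with a mean of at least 20 was that of ROBO2.

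ROBO4, known from endothelial cells, was low in every line. Its peak (chr11:124765990-124769017) had 20.2 and 40.8 in the Par libraries, 35.1 and 62.5 in the LM2 libraries, and 76.5 and 139 in the BrM2 libraries. BrM2 lay above Par, whereas LM2 and Par overlapped. The rise in BrM2 was 3.44-fold (log2 fold change 1.78 ± 0.54, DESeq2 adjusted p = 0.033), but edgeR gave an adjusted p of 0.0882, and the call held in only 1 of the 6 fits that left out a library. ROBO3 had the highest ROBO level, at a start inside the gene, and this peak differed from Par by -0.01 in LM2 and -0.31 in BrM2 (adjusted p = 1 and 0.964). The other ROBO3 peak, near the canonical start, gave 1.39 in LM2 and 0.48 in BrM2 and was not called without the block. Of the 7 ROBO peaks, 6 had positive values in each contrast with Par, and 2 were called in LM2 and 3 in BrM2. Among all H3K4me3 peaks, the positive share was 51.9% for LM2 against Par and 48.7% for BrM2 against Par. The share of tested peaks that rose was 1.97% and 2.82%. The 7 ROBO peaks belong to only 4 genes, with 3 at ROBO2 and 2 at ROBO3, so they are not 7 separate receptors. The 2 remaining ROBO2 starts had means of 3.49 and 7.39 normalized counts and were not called.

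UNC5A, a netrin receptor of the repulsive and dependence type, rose in LM2. Its peak (chr5:176237028-176238182) had 45.9 and 39.3 in the Par libraries, 134 and 161 in the LM2 libraries, and 55.4 and 86.5 in the BrM2 libraries. No line overlapped another. The level in LM2 was 3.51-fold that of Par (log2 fold change 1.81 ± 0.45, DESeq2 adjusted p = 0.00395). BrM2 differed from Par by 0.77 ± 0.45 (adjusted p = 0.629) and from LM2 by -1.05 ± 0.43 (adjusted p = 0.223, and 0.00574 with the replicate block). UNC5C gave 1.20 in LM2 and 0.70 in BrM2, and UNC5B gave 0.75 and -0.01, and neither gene passed by DESeq2. With the replicate block UNC5C passed in LM2 (adjusted p = 5.8e-05) and BrM2 (0.0468), and UNC5B passed in LM2 (0.0043) and in BrM2 against LM2 (0.00272).

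PLXNC1, the receptor of SEMA7A, was the only plexin promoter of 10 peaks called changed without the block. When the block was added, PLXNA2 (adjusted p = 0.0266) and PLXNB2 (0.00554) also fell in BrM2 against Par, and PLXNA1, PLXNA2, PLXNB1, PLXNB2 and PLXND1 were lower in BrM2 than in LM2. The peak at its start (chr12:94541497-94543987) had 226 and 194 in the Par libraries, 567 and 455 in the LM2 libraries, and 568 and 509 in the BrM2 libraries. Par lay below both sub-populations, and LM2 and BrM2 overlapped. The rise was 2.44-fold in LM2 (log2 fold change 1.28 ± 0.33, DESeq2 adjusted p = 0.00656) and 2.57-fold in BrM2 (1.36 ± 0.33, adjusted p = 0.00197). A weaker PLXNC1 peak at a start further into the gene, with a mean of 51.3, gave -0.29 and 0.25 and was not called. The plexin medians were 0.18 in LM2 and -0.16 in BrM2.

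Among Eph receptors, the DESeq2 test without the block called EPHA6 and EPHA7, both in BrM2. Both are class A Eph receptors best known from the nervous system. EPHA6 (chr3:96531614-96533841) had 182 and 155 in the Par libraries, 221 and 185 in the LM2 libraries, and 601 and 415 in the BrM2 libraries. EPHA7 (chr6:94126248-94130015) had 105 and 109 in the Par libraries, 162 and 200 in the LM2 libraries, and 587 and 426 in the BrM2 libraries. At both genes the BrM2 libraries lay above all others.

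EPHA6 was 3.02-fold of Par in BrM2 (log2 fold change 1.6 ± 0.35, DESeq2 adjusted p = 0.000566) and 2.50-fold of LM2 (1.32 ± 0.35, adjusted p = 0.00776). Its 10 neighbouring peaks had a median of -0.06 in BrM2 against Par. EPHA7 was 4.71-fold of Par (2.24 ± 0.36, adjusted p = 1.16e-07) and 2.79-fold of LM2 (1.48 ± 0.35, adjusted p = 0.00153). Around EPHA7 only 4 peaks had a mean of at least 20, and they had a median of 2.26 in BrM2 against Par, 3 of them above 0. The part of that neighbourhood in the EPHA7 result was not tested. LM2 against Par gave 0.76 ± 0.36 for EPHA7 (adjusted p = 0.488, and 0.00862 with the replicate block) and 0.27 ± 0.36 for EPHA6. In LM2, 2 of 12 Eph receptor peaks had positive values and the median was -0.06, and in BrM2 7 were positive and the median was 0.11. When the block was added, EPHB4 fell in LM2 (adjusted p = 0.0471) and in BrM2 (0.000233), EPHA5 fell in BrM2 (0.00199) and EPHA10 rose in BrM2 (0.0156). No Eph receptor promoter was called in LM2 by DESeq2 or edgeR without the block, with 1 higher and 1 lower at an unadjusted p under 0.05 in each. As DESeq2 called 2.51% of all tested peaks in LM2, the absence of calls does not set these 12 peaks apart.

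The 40 calls made at member peaks without the block, over both marks and the 3 contrasts, varied in how far they rested on single libraries. When each of the 6 libraries was left out in turn, 7 of the 40 calls held every time, those at ROBO2 (H3K4me3, LM2 and BrM2 against Par), EPHA7 (H3K4me3, BrM2 against Par), EPHB6 (H3K27ac, LM2 against Par and BrM2 against LM2), PLXNA1 and PLXNC1 (H3K27ac, BrM2 against Par, at the outer peaks). NTN1 held in 5 of 6 such fits in LM2 and in 3 in BrM2, and EPHA6 held in 4 against Par and in 3 against LM2. ROBO1 held in 3 in each contrast with Par, and PLXNC1 held in 2 in LM2 and 3 in BrM2. UNC5A held in 2, and the canonical SEMA6B start held in 3 in LM2 and 1 in BrM2. No call changed its sign.

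**Figure D3:**
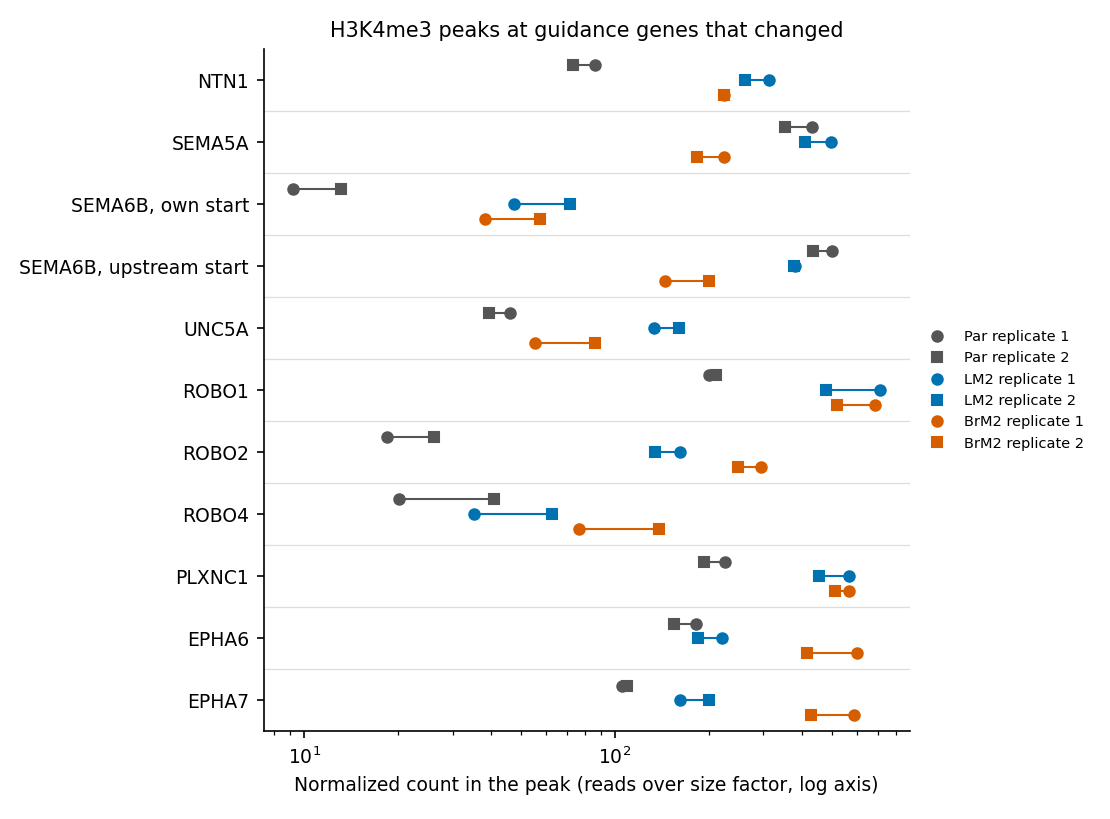
Normalized H3K4me3 counts in each library, on a log axis, for the 11 member promoter peaks that changed in any contrast. Changed here means called by DESeq2 without the replicate block. Circles are replicate 1 and squares replicate 2, joined by a line within each cell line. Par lies left of both sub-populations at NTN1, ROBO1, ROBO2, PLXNC1 and the canonical SEMA6B start, and BrM2 lies right of both others at EPHA6 and EPHA7.

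Ligands and receptors that bind each other were read in pairs, to see whether both sides moved. In 8 pairs of 16 genes, 2 promoters were called without the block, PLXNC1 and ROBO1, and both were receptors whose ligand was not called. The ligand of PLXNC1, SEMA7A, gave 0.63 ± 0.36 in LM2 (DESeq2 adjusted p = 0.718) and 0.17 ± 0.36 in BrM2 (adjusted p = 0.996). The ligand of ROBO1, SLIT2, gave 0.55 ± 0.33 (adjusted p = 0.789) and 0.26 ± 0.34 (adjusted p = 0.996). With the replicate block both ligands passed in LM2 (adjusted p = 5.16e-07 for SEMA7A and 1.64e-05 for SLIT2) but not in BrM2.

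At the ephrin pairs, EFNA1 gave 0.26 in LM2 and 0.28 in BrM2, and its receptor EPHA2 gave -0.03 and 0.10. EFNB2 gave 0.36 and -0.38 and its receptor EPHB4 gave -0.34 and -0.55, with adjusted p from 0.599 to 1 by DESeq2. Under the replicate block, EFNB2 passed in LM2 (0.00191), in BrM2 (0.00145) and between them (-0.74, adjusted p = 7.99e-13), and EPHB4 passed in LM2 (0.0471) and BrM2 (0.000233). The EFNB2 promoter carried 1722.9 normalized counts in LM2, 1344.9 in Par and 1030.5 in BrM2 on average, and neighbouring peaks had a median of -0.69 in BrM2 against LM2.

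The remaining semaphorin pairs moved little. SEMA3A and PLXNA1 gave -0.31 and 0.20 in LM2 and -0.09 and -0.19 in BrM2. SEMA3C and PLXND1 gave -0.35 and 0.16 in LM2 and -0.51 and -0.13 in BrM2. SEMA4D and PLXNB1 gave 0.06 and 0.29 in LM2 and -0.62 and -0.33 in BrM2, and none of these 6 genes passed without the block. Under the replicate block, SEMA4D passed in BrM2 against Par (adjusted p = 0.00151) and against LM2 (0.000322), SEMA3C in BrM2 against Par (0.0405), and PLXNA1, PLXNB1 and PLXND1 in BrM2 against LM2 (0.00829, 6.13e-05 and 0.0497).

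H3K27ac was read over the 259 assigned peaks, most of them distal to a start. The shares called were close to those over all peaks. In LM2 against Par, 4 of 192 tested member peaks rose and 3 fell, where 2.72% and 0.907% of all tested peaks did. In BrM2 against Par, 8 of 202 rose and 2 fell, where 3.62% and 1.67% did. In BrM2 against LM2, 3 of 186 were higher and 1 was lower, where 1.71% and 1.22% were. The medians over members were 0.04, -0.06 and -0.11, and over all peaks -0.02 in each contrast. With the replicate block the counts were 8 higher and 3 lower in LM2 (background 3.6% and 1.84%), 11 and 8 in BrM2 (5.14% and 2.99%), and 5 and 3 between them (3.65% and 2.52%).

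Among ligand genes, the largest called H3K27ac rise was at SLIT3, which encodes a ROBO ligand and had no H3K4me3 peak. A peak 48641 bp from its start and outside the gene (chr5:168776784-168778283) had 3.48 and 2.0 normalized counts in the Par libraries, 11.8 and 37.5 in the LM2 libraries, and 18.5 and 27 in the BrM2 libraries. Par lay below both sub-populations. The rise was 8.68-fold in LM2 (log2 fold change 3.12 ± 0.88, DESeq2 adjusted p = 0.0171) and 8.07-fold in BrM2 (3.01 ± 0.90, adjusted p = 0.0216). The LM2 call was lost without LM2 replicate 2 (2.09) and without either Par library (3.59 and 2.79). The BrM2 call was lost without either BrM2 library (3.29 and 2.75) and without either Par library (3.49 and 2.69). After the 5 Mb medians were removed, the BrM2 value was 2.36 (adjusted p = 0.128).

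At SEMA4D, the ligand of PLXNB1, an intronic peak 3463 bp from a start (chr9:92054861-92056204) fell in both sub-populations. It had 26.1 and 46.1 in the Par libraries, 3.93 and 4.93 in the LM2 libraries, and 4.87 and 3.86 in the BrM2 libraries. The fall was 8.27-fold in LM2 (log2 fold change -3.05 ± 0.74, DESeq2 adjusted p = 0.00316) and 8.05-fold in BrM2 (-3.01 ± 0.83, adjusted p = 0.0101). With the 5 Mb medians removed the BrM2 adjusted p was 0.0566. Each of these calls held in only 2 of the 6 fits that left out a library. The LM2 call was lost without either LM2 library (log2 fold changes of -2.86 and -3.2). The BrM2 call was lost without either BrM2 library (-3.22 and -2.88). At the SEMA4D promoter itself, the H3K27ac peak that overlaps the H3K4me3 peak gave -0.43 ± 0.34 in LM2 (adjusted p = 0.741) and -0.92 ± 0.36 in BrM2 (0.125, and 0.0296 with the replicate block).

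SEMA3C, a secreted semaphorin that signals through PLXND1, fell at the H3K27ac peak over its start (chr7:80547127-80552008). The counts were 230 and 200 in the Par libraries, 120 and 103 in the LM2 libraries, and 126 and 108 in the BrM2 libraries. Both sub-populations lay below Par and overlapped each other. The LM2 difference was -0.95 ± 0.30 (DESeq2 adjusted p = 0.0493) and was lost when any library was left out, with the 5 Mb medians removed (-0.59, adjusted p = 0.457) and with TMM scaling (adjusted p = 0.0515). The BrM2 difference of -0.87 ± 0.31 did not pass (adjusted p = 0.0786, and 0.0167 with the replicate block). In LM2 9 of the 32 neighbouring peaks lay above 0, and their median was -0.41.

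At SEMA6B, the H3K27ac peak at the upstream start (chr19:4580568-4585011) had 162 and 240 in the Par libraries, 119 and 132 in the LM2 libraries, and 79.9 and 90.6 in the BrM2 libraries. It was 2.37-fold lower in BrM2 than in Par (log2 fold change -1.24 ± 0.34, DESeq2 adjusted p = 0.00891), and -0.77 (adjusted p = 0.177) after the 5 Mb medians were removed. SEMA6D, another class 6 semaphorin, had a peak 44846 bp from its start (chr15:48103623-48106106) with 30.5 and 30.0 in the Par libraries, 18.5 and 28.6 in the LM2 libraries, and 66.3 and 86.8 in the BrM2 libraries. It was 3.28-fold higher in BrM2 than in LM2 (1.71 ± 0.46, adjusted p = 0.011). This call was lost without either BrM2 library (adjusted p = 0.316 and 0.446) and without either LM2 library (0.464 and 0.0681). BrM2 against Par gave 1.32 ± 0.45 (adjusted p = 0.0607, and 0.033 with the replicate block).

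SEMA4B, a membrane semaphorin, was lower in BrM2 than in LM2 at an intronic peak 991 bp from a start (chr15:90704827-90712388). The counts were 132 and 144 in the Par libraries, 323 and 180 in the LM2 libraries, and 117 and 108 in the BrM2 libraries. The difference was -1.16 ± 0.35 (DESeq2 adjusted p = 0.0324), and only 2 of the 85 neighbouring peaks lay above 0, with a median of -0.97. After the 5 Mb medians were removed the value was -0.14 (adjusted p = 0.993).

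Among receptor genes, PLXNA1, a co-receptor with neuropilins for class 3 semaphorins, had H3K27ac peaks that rose with no called change at its promoter. A peak 47608 bp from its start and outside the gene (chr3:126648661-126653928) had 32.2 and 18.0 in the Par libraries, 78.5 and 59.1 in the LM2 libraries, and 108 and 125 in the BrM2 libraries. The lines did not overlap. The rise was 2.74-fold in LM2 (log2 fold change 1.45 ± 0.42, DESeq2 adjusted p = 0.0212) and 4.59-fold in BrM2 (2.20 ± 0.42, adjusted p = 3.05e-05). The BrM2 call held without each library in turn, and the LM2 call held in 0 of 6 such fits. An intronic PLXNA1 peak (chr3:126720581-126721967) held 2 and 2 reads in the Par libraries, 44 and 40 in the LM2 libraries, and 7 and 4 in the BrM2 libraries. The ratio of summed, depth-scaled reads of LM2 to Par was 16.1 (95% counting interval 6.06 to 60.5), and the DESeq2 adjusted p was 0.00166. BrM2 against Par gave 1.95 ± 1.04 (adjusted p = 0.354).

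PLXNC1 rose in H3K27ac as well as in H3K4me3. A peak 45720 bp from its start (chr12:94490119-94496633) had 129 and 132 in the Par libraries, 264 and 262 in the LM2 libraries, and 314 and 361 in the BrM2 libraries. The lines were separate, with Par lowest. The values were 1.01 ± 0.28 in LM2 (DESeq2 adjusted p = 0.0124) and 1.37 ± 0.28 in BrM2 (adjusted p = 0.000123). An intronic peak 13127 bp from a start had 31.4 and 37.1 in the Par libraries, 69.0 and 88.7 in the LM2 libraries, and 92.6 and 114 in the BrM2 libraries. It gave 1.59 ± 0.39 in BrM2 (adjusted p = 0.00303) and 1.20 ± 0.39 in LM2 (adjusted p = 0.0535, and 0.019 with the replicate block). After the 5 Mb medians were removed, the LM2 call of the first peak (0.89, adjusted p = 0.0535) and the BrM2 call of the second (1.21, adjusted p = 0.0665) were lost. The LM2 call of the first was also lost without either LM2 library (1.01 and 1.01) and without either Par library (0.99 and 1.03). The BrM2 call of the second was lost without either BrM2 library (1.74 and 1.45) and without Par replicate 1 (1.47).

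At ROBO1, the H3K27ac peak over the same start as the H3K4me3 peak had 33.1 and 32.1 in the Par libraries, 62.3 and 63.1 in the LM2 libraries, and 113 and 82.9 in the BrM2 libraries. The lines did not overlap. The rise was 3.04-fold in BrM2 (log2 fold change 1.6 ± 0.40, DESeq2 adjusted p = 0.00329), and LM2 gave 0.94 ± 0.40 (adjusted p = 0.221). At ROBO2, an intronic peak 2609 bp from an upstream start (chr3:76356026-76357638) had 8.71 and 8.01 in the Par libraries, 11.2 and 6.90 in the LM2 libraries, and 68.2 and 63.6 in the BrM2 libraries. This was 7.89-fold of Par (2.98 ± 0.58, adjusted p = 4.93e-05) and 7.08-fold of LM2 (2.82 ± 0.56, adjusted p = 0.000107). The peak over the canonical ROBO2 start held 3 and 2 reads in the Par libraries, 14 and 6 in the LM2 libraries, and 22 and 11 in the BrM2 libraries, and the ratio of BrM2 to Par was 9.17 (95% counting interval 3.56 to 30.1), with a DESeq2 adjusted p of 0.0228. The neighbouring H3K27ac peaks of this stretch of chromosome 3 were also higher in BrM2, with medians of 3.68 over 9 peaks around ROBO1 and of 1.46 over 11 peaks around the intronic ROBO2 peak. The calls held with the 5 Mb medians removed, where a window with under 20 peaks took the median of its chromosome. When each of the 6 libraries was left out in turn, the ROBO1 call held in 3 fits and each intronic ROBO2 call in 5. The call over the canonical ROBO2 start held in 1, and in 4 it had no adjusted p. The part of the neighbourhood in these results was not tested.

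EPHA6 had an H3K27ac peak 493 bp from its start and outside the gene (chr3:96532125-96532932) with 8.71 and 7.01 in the Par libraries, 11.2 and 14.8 in the LM2 libraries, and 41.9 and 46.3 in the BrM2 libraries. The rise in BrM2 was 5.57-fold (log2 fold change 2.48 ± 0.63, DESeq2 adjusted p = 0.00375), and BrM2 against LM2 gave 1.78 ± 0.57 (adjusted p = 0.0606, and 0.0406 with the replicate block). The call against Par held in only 2 of the 6 fits that left out a library. It was lost without either BrM2 library (log2 fold changes of 2.56 and 2.42) and without either Par library (2.65 and 2.33). The smallest adjusted p among the H3K27ac peaks belonged to a loss in LM2, at EPHB6. A peak of 9692 bp, 40667 bp from the start of EPHB6 and outside the gene (chr7:142502465-142512156), had 295 and 266 in the Par libraries, 27.5 and 41.4 in the LM2 libraries, and 225 and 222 in the BrM2 libraries. EPHB6 is an Eph receptor without kinase activity, and its own H3K4me3 peak was weak, with a mean of 6.71. LM2 was 8.33-fold lower than Par (-3.06 ± 0.33, adjusted p = 7.66e-17), and BrM2 was 6.63-fold higher than LM2 (2.73 ± 0.33, adjusted p = 9.05e-13). Both calls held without each library in turn. BrM2 and Par differed by -0.33 ± 0.30 (adjusted p = 0.7). Nearest-gene assignment at such distances does not show which gene a peak acts on.

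**Figure D4:**
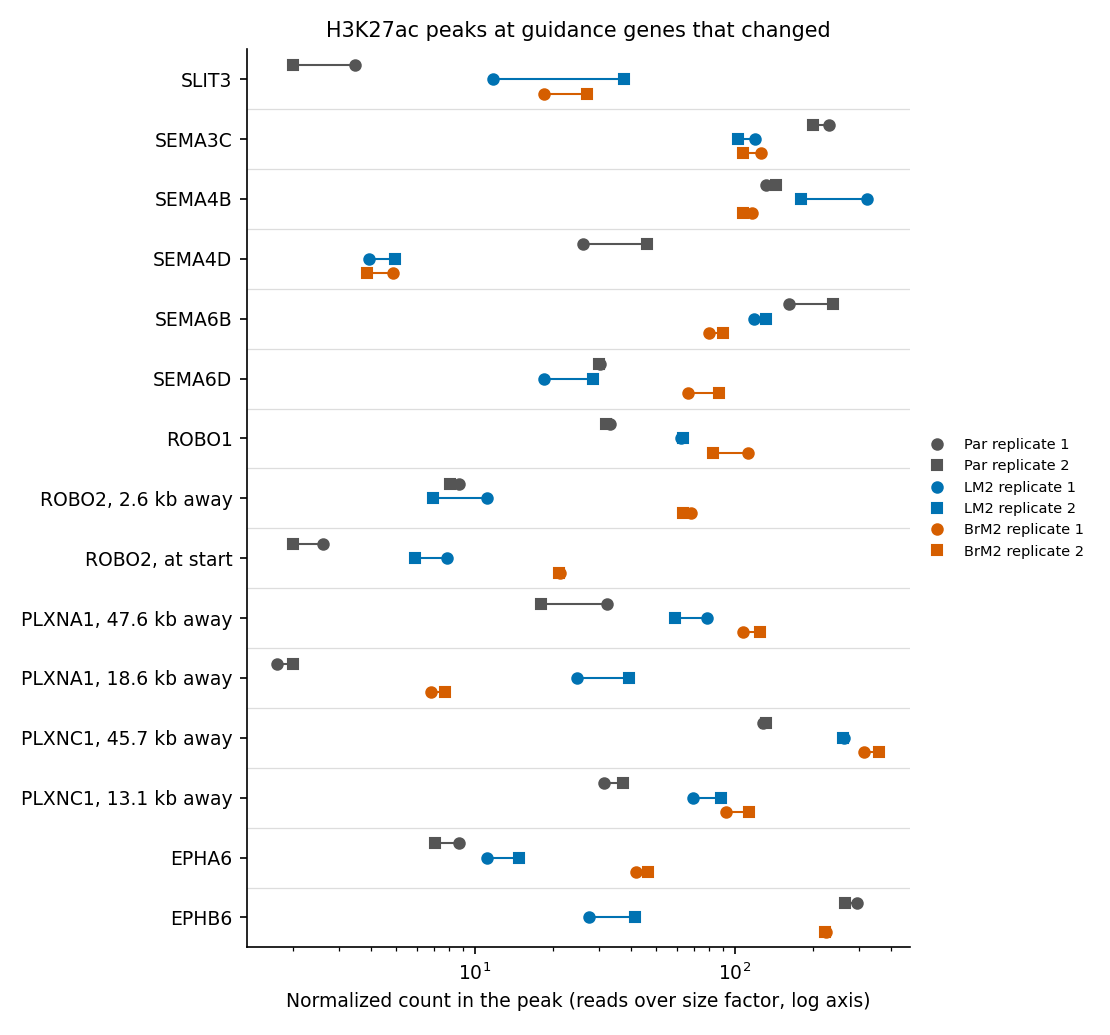
Normalized H3K27ac counts in each library, on a log axis, for the 15 peaks at member genes that changed in any contrast. Changed here means called by DESeq2 without the replicate block. Circles are replicate 1 and squares replicate 2, joined by a line within each cell line, and where a gene has several peaks the distance to the nearest annotated start is given. LM2 lies far left of the other lines at EPHB6, both sub-populations lie far left of Par at SEMA4D, and BrM2 lies far right at ROBO2 and EPHA6.

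At the same promoters the 2 marks, measured in separate libraries, mostly moved the same way. An H3K27ac peak overlapped 62 of the 67 H3K4me3 peaks, at 53 genes. The log2 fold changes had the same sign at 44 of the 62 pairs in LM2 against Par, at 49 in BrM2 against Par and at 42 in BrM2 against LM2. Across the pairs Pearson's r was 0.66, 0.764 and 0.653 and Spearman's rank correlation was 0.759, 0.673 and 0.734. This is a description across peaks, which share libraries within a mark and, in part, their H3K27ac peak. The same values were not computed over the promoters of all genes, so those given here cannot set the guidance genes apart. NTN1 gave 2.16 in LM2 and 1.46 in BrM2 for H3K27ac, beside 1.86 and 1.5 for H3K4me3. Its H3K27ac values did not pass (DESeq2 adjusted p = 0.0619 in LM2 and 0.329 in BrM2), and that peak held only 5 and 7 reads in the Par libraries. EPHA7 gave 1.10 for H3K27ac in BrM2 beside 2.24 for H3K4me3. ROBO4 gave 0.07 in BrM2 beside 1.78, and the canonical SEMA6B start gave -0.15 beside 2.06. The H3K27ac values of EPHA7, ROBO4 and the canonical SEMA6B start were not called either.

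**Figure D5:**
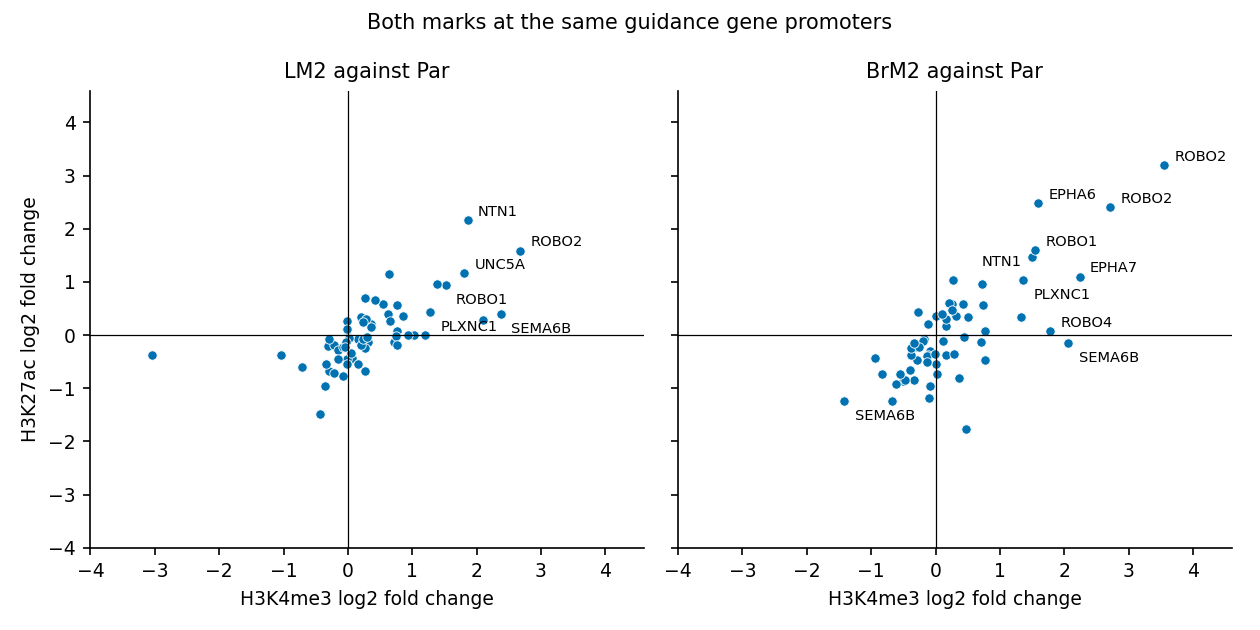
log2 fold changes of H3K4me3 (x axis) and of the overlapping H3K27ac peak (y axis) at 62 member promoter peaks, for LM2 and BrM2 against Par. ROBO2 lies furthest to the upper right in BrM2 (3.55 and 3.20), and ROBO4 and the canonical SEMA6B start lie near 0 for H3K27ac.

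Other genes of the pathway, such as neuropilins, DCC, cytoplasmic adaptors and cytoskeletal regulators, were read from a list of 51 genes, of which 45 had an H3K4me3 peak and 45 an H3K27ac peak. For H3K4me3, 57 peaks gave 0 calls in LM2 against Par, 1 in BrM2 against Par and 0 between them by DESeq2. Of all tested peaks 2.51%, 3.61% and 3.18% were called, so with 57 peaks these counts do not set the genes apart. At an unadjusted p under 0.05 there were 4 higher and 0 lower in LM2, and 3 higher and 7 lower in BrM2 against LM2, where edgeR called 1 peak, and edgeR called none in LM2. The single call without the block was CHL1, a cell adhesion molecule of the L1 family, with 5.51 and 6.94 normalized counts in the Par libraries, 15.2 and 19.6 in the LM2 libraries, and 63.3 and 31.1 in the BrM2 libraries (log2 fold change 2.87 ± 0.76, DESeq2 adjusted p = 0.00732). With the replicate number as a block, 10 of these peaks rose and 1 fell in LM2, 3 rose and 11 fell in BrM2, and 2 were higher and 17 lower in BrM2 against LM2 (20.4%, 24.6% and 33.3% of those tested, where 14.4%, 17.7% and 22% of all tested peaks passed). For H3K27ac, 6 of 263 tested peaks were called in LM2 (2.28%), 9 of 280 in BrM2 (3.21%) and 4 of 250 between them (1.6%). These shares lay below those over all tested peaks, which were 3.63%, 5.29% and 2.94%.

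Within these H3K27ac calls, NRP1, the neuropilin that pairs with class A plexins, was higher in BrM2 at a peak with 106 and 95.2 in the Par libraries, 128 and 119 in the LM2 libraries, and 227 and 200 in the BrM2 libraries (log2 fold change 1.09 ± 0.31, DESeq2 adjusted p = 0.0126). RGMB, a repulsive guidance molecule bound to the membrane, rose in BrM2 at peaks with differences of 3.00 ± 0.72 (adjusted p = 0.00189) and 1.69 ± 0.40 (adjusted p = 0.00145). FYN, a kinase downstream of several guidance receptors, was higher in LM2 than in Par at a peak with 11.3 and 18.0 in the Par libraries, 88.6 and 108 in the LM2 libraries, and 40.0 and 40.5 in the BrM2 libraries, which also lay above Par (2.75 ± 0.46, adjusted p = 9.32e-07). VAV2, a guanine nucleotide exchange factor, rose in LM2 (2.83 ± 0.65, adjusted p = 0.00128) and was lower in BrM2 than in LM2 (-4.22 ± 0.89, adjusted p = 0.000439). ABLIM1, an actin-binding protein, fell at 2 peaks in LM2 (-1.35 and -1.65) and at another in BrM2 (-2.79).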

How the data were processed

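H3K4me3 and H3K27ac ChIP-seq was analysed in 3 cell lines with 2 libraries per line and mark. The deposited values are raw read counts per consensus peak. To make them, the authors aligned reads to hg19 with Bowtie2 2.3.4.3, called peaks with MACS2 2.1.2 on merged reads and counted reads with featureCounts 1.6.0, and the submitters' processing notes also name Picard 2.18.21, Trimmomatic 0.32 and HOMER 4.10. No count column was unmatched to a sample, and the peak lists and inputs were not used.

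Peaks were assigned to genes with GENCODE release 44 on GRCh37. For each mark, DESeq2 1.42.0 in R 4.3.3 was run on all peaks with line as the only term (3 residual degrees of freedom), and peaks with a Benjamini-Hochberg adjusted p under 0.05 in the Wald test were called. A peak that DESeq2's independent filtering left without an adjusted p counted as not tested. edgeR 4.0.16 quasi-likelihood tests, TMM scaling, a mean count of at least 10, medians of chromosomes or 5 Mb windows removed, narrower assignment and leaving out each library were alternatives. The steps were tested on simulated counts drawn independently for each library. These lacked the deviations that same-numbered libraries share, so the test does not cover them. Neighbours of a peak are peaks of the same mark within 2.5 Mb whose normalized counts averaged 20 or more. A window with under 20 peaks took its chromosome's median. Counting intervals cover counting error only.

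Same-numbered libraries deviated together in every pair of lines. The correlation of their deviations from the group means was 0.788 to 0.843 for H3K4me3 (13309 peaks) and 0.407 to 0.607 for H3K27ac (20124 peaks). The replicate numbers, which come from the labels, were therefore taken to pair the libraries. Fits with the number as a block are given for the counts and for many of the named peaks. Not every peak whose call the block changes is described. The H3K4me3 peaks of SEMA3F and SEMA6D, for example, passed with it in both contrasts with Par.

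The genes named are the called member peaks, up to 10 per contrast by size of change, the leading gene of each family by level, and the 16 genes of 8 ligand and receptor pairs. Genes shown outside this rule, such as UNC5C, EFNA3, EFNB1, EFNB3, PLXNA2, PLXNB2, EPHA5, EPHA10 and those of the wider pathway list, were chosen after their values were seen. The members and lists were chosen with earlier results of these data known. The sequences of some promoter windows are not reported here.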

Additional observations from a re-analysis of the deposited data

Results flagged for a closer look

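At 8 member peaks BrM2 and LM2 differed from each other by the DESeq2 test without the replicate block (adjusted p under 0.05). Their changes against the shared Par libraries therefore differed there. For H3K4me3, the log2 difference of BrM2 against LM2 was 1.48 at EPHA7, 1.32 at EPHA6, -1.14 at SEMA5A and -1.12 at the upstream start of SEMA6B. For H3K27ac it was 2.82 at the intronic ROBO2 peak, 2.73 at the distal EPHB6 peak, 1.71 at the distal SEMA6D peak and -1.16 at the intronic SEMA4B peak. The SEMA6B and SEMA4B values lay among neighbours with medians of -0.54 and -0.97 and became -0.53 (adjusted p = 0.855) and -0.14 (adjusted p = 0.993) once the 5 Mb medians were removed. When each of the 6 libraries was left out in turn, the SEMA6B and SEMA5A calls held in 0 fits, SEMA4B in 1, SEMA6D in 2, EPHA6 in 3, EPHA7 in 4, ROBO2 in 5 and EPHB6 in 6.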

How the results depend on the processing

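With the replicate block, the number of called H3K4me3 member peaks was 21 instead of 6 in LM2 against Par, 22 instead of 9 in BrM2 against Par and 27 instead of 4 in BrM2 against LM2. The H3K27ac numbers were 11 instead of 7, 19 instead of 10 and 8 instead of 4. The replicate block lost none of the 40 calls. edgeR with the replicate block gave 31, 36 and 40 for H3K4me3 and 35, 46 and 28 for H3K27ac, and edgeR without it gave 18, 18 and 8 for H3K27ac. With the 5'-most start of each gene only, 3 H3K4me3 peaks were called in LM2 against Par and 2 H3K27ac peaks in BrM2 against LM2. The cause was not tested.

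Leaving out each library in turn gave 1 to 6, 2 to 9 and 0 to 2 called H3K4me3 peaks, and 1 to 5, 2 to 10 and 1 to 3 called H3K27ac peaks, in the same order of contrasts; these fits have fewer libraries. For H3K4me3 in LM2 against Par, 3 were called without LM2 replicate 1 or 2, 2 without Par replicate 1 and 1 without Par replicate 2. In BrM2 against Par, 2 were called without BrM2 replicate 1 or Par replicate 2, and 5 without BrM2 replicate 2 or Par replicate 1. For H3K27ac in LM2 against Par, 3 were called without LM2 replicate 1 and 1 without LM2 replicate 2 or either Par library. In BrM2 against Par, 2 were called without BrM2 replicate 1 and 4 without BrM2 replicate 2 or either Par library. In BrM2 against LM2, every left-out library moved the H3K4me3 number by over 1.5 times, and BrM2 replicate 1 (1 call), BrM2 replicate 2 (2) and LM2 replicate 1 (2) moved the H3K27ac number.

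Of the 40 calls, 39 held with TMM scaling, 38 with edgeR, 38 with a mean count of at least 10, 37 with chromosome medians removed and 31 with 5 Mb medians removed. With a library left out, 13 (without Par replicate 2) to 26 (without LM2 replicate 1) held, and no call changed sign under these settings. Depth limits the peaks with few reads, such as those at ROBO2, SLIT3 and PLXNA1 for H3K27ac, and 2 libraries per line limit every test.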
